A study of Mus musculus with 21 samples.

Results

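The miR-29 family was described across the 4 groups of a mouse heart study. Its members are the rows of the count table whose name is an arm of miR-29a, of either copy of miR-29b, or of miR-29c. These were 7 of the 1903 named rows, and all 7 were among the 561 that passed the filter on low counts. The family is known for targeting collagens, and collagen messages were not measured here.

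MicroRNAs are short RNAs that pair through their seed, bases 2 to 8, with messenger RNAs and lower their translation or stability. The 3p arms of miR-29 carry the family's seed and are the strands known to act. Their textbook targets are messages for extracellular matrix, among them Col1a1, Col1a2 and Col3a1 (fibrillar collagens), Eln (elastin) and Fbn1 (fibrillin). In the heart the family is known as antifibrotic: TGF-beta signalling lowers it in fibroblasts, and it falls in scarring myocardium, where collagen rises. The 5p arms are the partner strands of the same hairpins and are mostly degraded.

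The left ventricle myocardium of 21 mice of the C57BL/6J strain was sequenced for microRNAs, each mouse giving 1 library. The Sham group (5 mice) had sham surgery and no drug. The TAC group (5 mice) had transverse aortic constriction, which overloads the left ventricle with pressure, and no drug. The TAC+PDE5A-I group (5 mice) had the same constriction and sildenafil, which blocks phosphodiesterase 5A. The TAC+PDE9A-I group (6 mice) had the constriction and PF-04449613, which blocks phosphodiesterase 9A. Both enzymes break down cyclic GMP. Drug was given for 4 weeks from 1 week after surgery. The sources used here give no dose, age or sex.

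The sequences are shown because the comparisons below turn on members that differ by very few bases. They are RefSeq mature sequences on GRCm38.p6, written 5′ to 3′ with the seed in capitals, and 7 of 7 members matched by name.
miR-29a-3p: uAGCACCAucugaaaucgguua
miR-29b-3p: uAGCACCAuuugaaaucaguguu
miR-29c-3p: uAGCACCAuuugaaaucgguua
miR-29a-5p: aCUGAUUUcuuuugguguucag
miR-29b-1-5p: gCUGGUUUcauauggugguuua
miR-29b-2-5p: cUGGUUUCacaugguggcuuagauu
miR-29c-5p: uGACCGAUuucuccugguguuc

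The 3p arms share the seed AGCACCA, which is found in these 3 mature sequences and in no other mature mouse sequence of the RefSeq table. Counted from 1 at the 5′ end and with the miR-29a-3p base first, miR-29c-3p differs from miR-29a-3p by C10U alone. miR-29b-3p differs from miR-29a-3p by C10U, G18A, U21G and A22U and has 1 more base at its 3′ end, where the letters AGUGUU have been described as a nuclear localisation element. With the miR-29c-3p base first, miR-29b-3p differs from miR-29c-3p by G18A, U21G and A22U. Reads of such close relatives can be assigned to one another, so values of single 3p arms carry that uncertainty. The seeds of the 4 5p arms differ from each other and from that of the 3p arms.

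The hairpins lie in 2 clusters of the GRCm38 genome with GENCODE M21 annotation. On the minus strand of chromosome 6, Mir29a lies at chr6:31062660-31062747 and Mir29b-1 at chr6:31063023-31063093, 275 bases apart, and the first 2 bases of Mir29b-1, at its 5′ end, overlap an exon of the noncoding gene Gm27019. On the plus strand of chromosome 1, Mir29b-2 lies at chr1:195037040-195037120 and Mir29c at chr1:195037547-195037634, 426 bases apart. Both lie in an exon of the noncoding gene A330023F24Rik on the same strand, and opposite the UTR of Cd46, a protein-coding gene on the other strand. Mature miR-29b-3p is made from both clusters and has 1 row, so its reads cannot be split between them.

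Total counts were 3766517 to 7490436 in Sham and 5373960 to 8497792 in TAC. They were 1205417 to 3969716 in TAC+PDE5A-I. In TAC+PDE9A-I, library 5 held 1546318 and the others at least 4785164. TAC+PDE5A-I 3, 4 and 5 and TAC+PDE9A-I 5 thus stood apart, as the libraries under 2000000 counts. The count-weighted GC content, over rows with a RefSeq sequence (52.4% of counts), was 44.6% to 45.0% in Sham and 44.9% to 45.1% in TAC. It was 46.0% to 48.6% in TAC+PDE5A-I and 47.2% in TAC+PDE9A-I 5, and the other TAC+PDE9A-I libraries were at 44.7% to 45.3%. Heart muscle markers (miR-499-5p, miR-208a-3p, miR-133a-3p and miR-1a-3p) were all present in every group, and miR-124-3p, which defines neurons, was at 0 in every library. The other row on the neuron list, miR-9-5p, was present, at 20.5 to 37.3 CPM in Sham and 8.28 to 17.9 in TAC. It was at 3.89 to 10.1 CPM in TAC+PDE5A-I and 9.37 to 24.3 in TAC+PDE9A-I. Levels below are CPM, counts scaled by the library total and its TMM factor, given as mean ± SD, and log2 fold changes are given ± standard error (SE). A row was called where its edgeR quasi-likelihood p, adjusted over the 561 rows by the Benjamini-Hochberg method, was under 0.05.

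The family was dominated by miR-29a-3p, the 25th most abundant of the 561 rows in Sham by mean level. miR-29c-3p was the 66th and miR-29b-3p the 152nd. The 5p arms lay lower, with miR-29a-5p the 200th, miR-29c-5p the 266th, miR-29b-2-5p the 394th and miR-29b-1-5p the 438th. In Sham, miR-29a-3p made up 85.1% to 89.5% of the reads of the 3 seed-sharing arms. All 7 rows together took 0.605% ± 0.0308 of a library's counts in Sham (n = 5), 0.49% ± 0.124 in TAC (n = 5), 0.347% ± 0.10 in TAC+PDE5A-I (n = 5) and 0.531% ± 0.113 in TAC+PDE9A-I (n = 6). In bulk tissue, fewer cells of a type and less RNA per cell cannot be told apart.

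**Figure D1:**
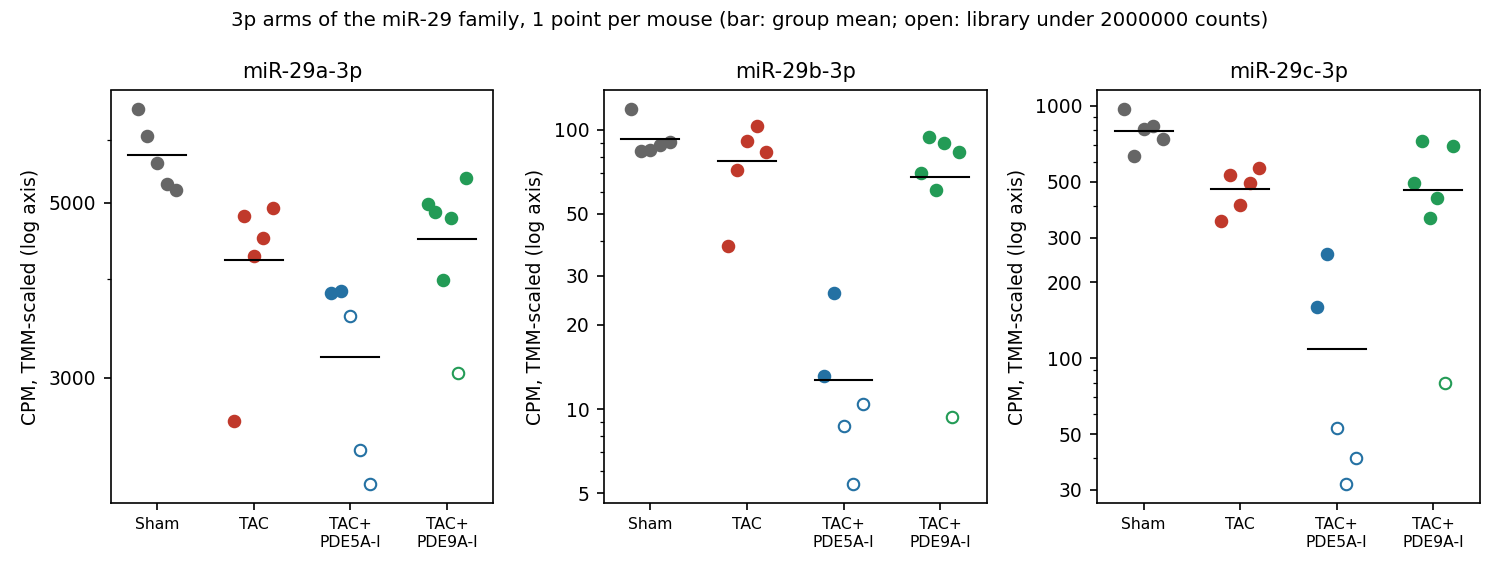
Levels of the 3 seed-sharing arms by mouse, as TMM-scaled CPM on a log axis, with a bar at each group mean and open points for the 4 libraries under 2000000 counts. The TAC points for miR-29a-3p and miR-29c-3p lie below all Sham points, and the TAC+PDE5A-I points for miR-29b-3p and miR-29c-3p lie below all TAC points, while the open TAC+PDE9A-I point lies among those of TAC+PDE5A-I.

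After constriction alone, every row of the family had a lower mean than in Sham, and none passed the test. miR-29c-3p had the most negative estimate, with a log2 fold change of -0.77 ± 0.51, or 1.70-fold lower. The reference for reading these values is that 2.32% of the 561 rows were called in either direction in TAC against Sham and 0.178% were called lower. Of the 7 rows, 0 were called by edgeR, 2 had an unadjusted p under 0.05 (miR-29a-3p and miR-29c-5p), and DESeq2 called 1. DESeq2 gave miR-29b-1-5p and miR-29b-2-5p no adjusted p in this comparison. Of all 561 rows, 88 had an unadjusted p under 0.05 and DESeq2 called 54. The median log2 fold change was -0.52 over the 7 rows and -0.08 over all rows. Cell type markers moved in the same comparison: the 4 heart muscle rows summed to 139510 to 177835 CPM in Sham and 77720 to 144036 in TAC (medians 169783 and 101387), and the 4 fibroblast and stroma rows (miR-199a-5p, miR-199b-5p and both miR-214 arms) to 272 to 349 CPM in Sham and 755 to 1399 in TAC, without overlap. The leukocyte rows summed to 2222 to 2674 and 1397 to 2523 CPM, and the part of these shifts in the family's values was not tested. Ear tags of Sham 1 to 3 and TAC 1 and 2 were in the 100s. Sham 4 and 5 and TAC 4 and 5 were in the 600s. Within the 100s mean log2 CPM differed from Sham by -0.77 for miR-29a-3p, -0.84 for miR-29b-3p and -0.88 for miR-29c-3p. Within the 600s it differed by -0.15, 0.05 and -0.57. For miR-29a-5p, miR-29b-1-5p, miR-29b-2-5p and miR-29c-5p the differences were -0.27, -0.30, -0.38 and -0.86 (100s) and -0.38, -1.01, -0.54 and -0.055 (600s).

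miR-29c-3p, 1 of the 3 seed-sharing arms, was at 969, 633, 812, 833 and 741 CPM in Sham 1 to 5. In TAC 1 to 5 it was at 348, 530, 405, 494 and 566 CPM. Every TAC mouse lay below every Sham mouse, with means of 469 ± 90.1 and 798 ± 124 (n = 5 each). The test over all 4 groups gave an adjusted p of 0.577 with edgeR. Fitted on Sham and TAC alone, the log2 fold change was -0.64 ± 0.14 and passed (edgeR adjusted p = 0.00863). Without the 4 libraries under 2000000 counts, none of which is in these 2 groups, it was -0.78 ± 0.21 and passed (0.0272), and it passed with a correction for GC content (-0.69 ± 0.18, 0.0315). In the order given, these fits called 98 of 507 rows, 75 rows and 23 of 487 rows in TAC against Sham. The fit over all 4 groups called 13 of 561.

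miR-29a-3p, the most abundant member, was at 6572, 6086, 5620, 5279 and 5196 CPM in Sham 1 to 5. In TAC 1 to 5 it was at 2646, 4810, 4278, 4519 and 4932 CPM. The groups did not overlap, and TAC 1 lay far below the other TAC mice. The log2 fold change was -0.44 ± 0.21 and did not pass (edgeR adjusted p = 0.307, unadjusted p = 0.0471). With miR-29b-1-5p and miR-29c-3p, it was among the 3 of 7 rows that lay lower in TAC without overlap, as did 8.56% of all rows.

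miR-29b-3p, the member made from both clusters, was at 118, 83.7, 84.3, 88.0 and 90.7 CPM in Sham 1 to 5. In TAC 1 to 5 it was at 38.5, 71.8, 91.3, 103 and 83.2 CPM. The groups overlapped, and TAC 1, 2 and 5 lay below the lowest Sham mouse. The log2 fold change was -0.26 ± 0.43 (edgeR adjusted p = 0.969), with a 95% interval from -1.16 to 0.64.

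Among the 5p arms, miR-29c-5p was at 14.7 ± 2.99 CPM in Sham and 10.2 ± 1.47 in TAC (n = 5 each). Its log2 fold change was -0.52 ± 0.24 and did not pass with edgeR (adjusted p = 0.282), while DESeq2 called it lower (-0.54, adjusted p = 0.0497). miR-29a-5p was at 38.6 ± 3.30 CPM in Sham and 31.2 ± 4.65 in TAC, with a log2 fold change of -0.30 ± 0.81. The groups overlapped for both. The 5p arms of the miR-29b copies were at 1.34 to 6.21 CPM across these 2 groups, and their log2 fold changes were -0.71 ± 0.67 for miR-29b-1-5p and -0.64 ± 0.33 for miR-29b-2-5p, neither of which passed (edgeR adjusted p = 0.811 and 0.386).

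**Figure D2:**
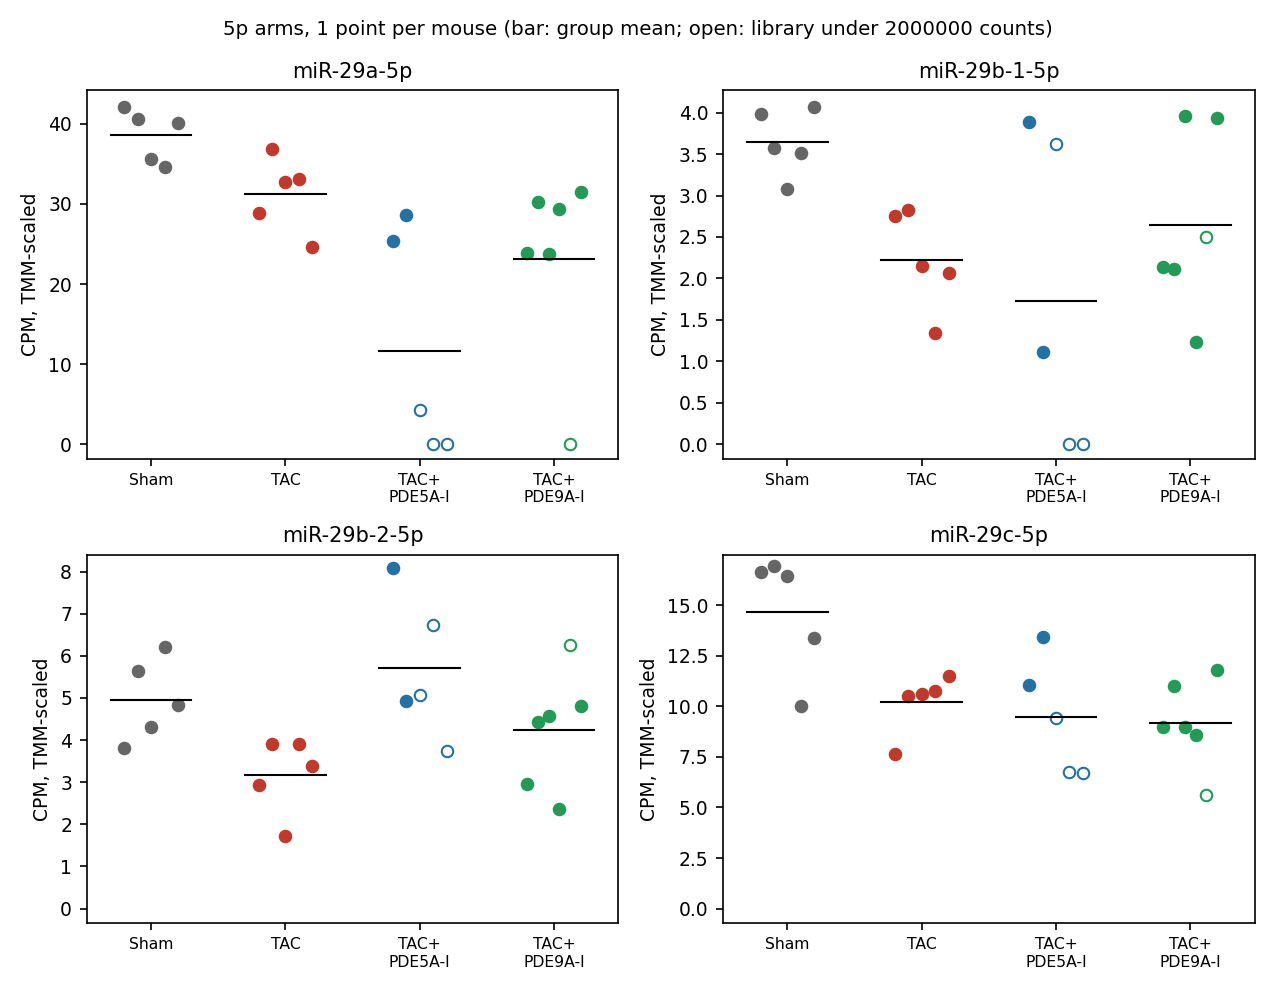
Levels of the 4 partner-strand arms by mouse, as TMM-scaled CPM on linear axes, with a bar at each group mean and open points for the 4 libraries under 2000000 counts. miR-29a-5p was at 0 counts in TAC+PDE5A-I 4 and 5 and in TAC+PDE9A-I 5, while miR-29b-2-5p and miR-29c-5p were above 0 in all 21 libraries.

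With sildenafil, the family split. miR-29b-3p and miR-29c-3p fell against TAC, 5.92-fold and 4.28-fold, while the log2 fold change of miR-29a-3p, which carries the same seed, was -0.41 ± 0.21 and did not pass. With a correction for GC content neither fall passed, at log2 -0.10 and -0.12. The partner strand miR-29b-2-5p was called higher at a few CPM. This made 3 of 7 rows called (42.9%), where 46.3% of all 561 rows were called in TAC+PDE5A-I against TAC. By direction, 24.8% of all rows were lower and 21.6% higher, so the family's count was near the background. The median log2 fold change was -0.41 over the 7 rows and -0.31 over all rows.

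miR-29b-3p was at 13.2, 25.9, 8.70, 5.39 and 10.4 CPM in TAC+PDE5A-I 1 to 5, against 38.5 CPM in the lowest TAC mouse. Every treated mouse lay below every TAC mouse, as was so for 20.7% of all rows. The log2 fold change was -2.57 ± 0.46 (edgeR adjusted p = 0.000882). Without the 4 libraries under 2000000 counts it was -1.97 ± 0.36 and still passed (0.00109), on TAC+PDE5A-I 1 and 2 alone. With a correction for GC content it was -0.10 ± 0.26 and did not pass (0.823).

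miR-29c-3p was at 160, 259, 52.9, 31.7 and 40.3 CPM in TAC+PDE5A-I 1 to 5, against 348 CPM in the lowest TAC mouse. The groups again did not overlap, and the 3 shallow libraries held the lowest values. The log2 fold change was -2.10 ± 0.53 (edgeR adjusted p = 0.00479), and -1.15 ± 0.29 (0.0111) without the 4 shallow libraries. With the GC correction it was -0.12 ± 0.18 and did not pass (0.679).

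miR-29a-3p was at 3848, 3870, 3597, 2430 and 2201 CPM in TAC+PDE5A-I 1 to 5. These overlapped the TAC values only through TAC 1, at 2646 CPM. The call turned on the settings: edgeR gave an adjusted p of 0.113, and the row was called lower with DESeq2 (-0.58, 0.00975), with RLE size factors (-0.58, 0.0304), with no filter on low counts (-0.63, 0.0456), with libraries thinned to the smallest total (-0.59, 0.0307) and without any 1 of TAC 1, TAC+PDE5A-I 1, TAC+PDE5A-I 2 and TAC+PDE9A-I 5. With upper-quartile scaling its estimate turned to 0.05, as did the median of the 7 rows, while the median of all rows moved from -0.31 to 0.16.

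The GC content of the arms moved with these differences. The arms under 37% GC, miR-29b-3p (34.8%), miR-29c-3p and miR-29a-5p (36.4% each), had the 3 most negative log2 fold changes against TAC. miR-29a-3p and miR-29b-1-5p (40.9% each), miR-29b-2-5p (44.0%) and miR-29c-5p (50%) lay closer to 0 or above it. With a correction for GC content within each library, fitted on the 487 rows with a RefSeq sequence, the falls of miR-29b-3p and miR-29c-3p ended. With the same correction miR-29a-3p turned to 1.47 ± 0.34 and was called higher (edgeR adjusted p = 0.00423), as was miR-29b-2-5p (2.22 ± 0.52, 0.00457), in a fit that called 153 of the 487 rows. How far GC content or library state accounts for the uncorrected falls was not tested.

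**Figure D3:**
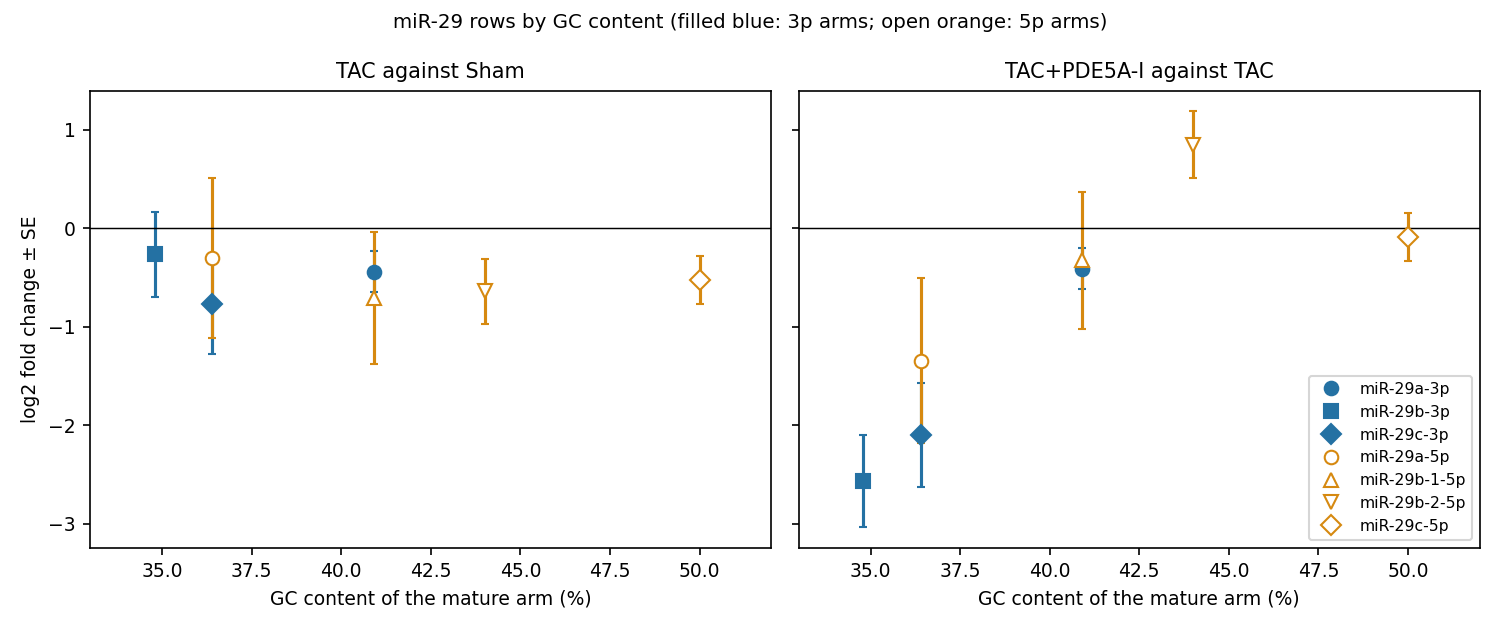
Log2 fold change ± SE of the 7 rows against the GC content of their mature arm in percent, for TAC against Sham (left) and TAC+PDE5A-I against TAC (right), with 1 marker per row. In the right panel the 3 arms below 37% GC are lowest, at -2.57, -2.10 and -1.34, while in the left panel all 7 rows lie between -0.77 and -0.26.

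miR-29a-5p was at 25.4, 28.6 and 4.35 CPM in TAC+PDE5A-I 1 to 3 and had no read in TAC+PDE5A-I 4 and 5, where a count of 0 allows up to 2.02 and 2.24 CPM (3 counts, counting error only). Its log2 fold change against TAC was -1.34 ± 0.84 (edgeR adjusted p = 0.196). miR-29b-1-5p was also at 0 in TAC+PDE5A-I 4 and 5 and at 1.12 to 3.89 CPM in the others, with a log2 fold change of -0.32 ± 0.70, and its levels in TAC, 1.34 to 2.82 CPM, spanned the floor of 3 counts in those 2 libraries. A fall of miR-29b-1-5p in those 2 libraries was thus not detectable at this depth.

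miR-29b-2-5p was at 8.08, 4.92, 5.07, 6.74 and 3.73 CPM in TAC+PDE5A-I 1 to 5, against 2.95, 3.90, 1.72, 3.91 and 3.39 in TAC 1 to 5. Only TAC+PDE5A-I 5 lay within the TAC range. The log2 fold change was 0.85 ± 0.34 (edgeR adjusted p = 0.0455). The call was lost whichever library was left out (adjusted p 0.0551 to 0.314), with the replicate block (0.88, 0.0773), with the ear tag range as a term (0.79, 0.116), with DESeq2 (0.71, 0.0508) and with RLE size factors (0.67, 0.0955). miR-29c-5p, the partner strand of miR-29c-3p, was at 9.47 ± 2.88 CPM (n = 5) and its log2 fold change against TAC was -0.09 ± 0.24, with a 95% interval from -0.60 to 0.42.

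Markers of cell types moved in the same comparison, in both directions. The summed level of the 4 smooth muscle rows (miR-143 and miR-145a arms) was 4873 to 43368 CPM in TAC+PDE5A-I and 70379 to 143644 in TAC. Within this sum miR-145a-5p went the other way, at 845 ± 151 CPM in TAC+PDE5A-I and 532 ± 160 in TAC (n = 5 each). The endothelial rows (both miR-126a arms) summed to 999 to 15676 CPM and 25780 to 42969, and the 3 erythroid rows to 23.1 to 416 CPM and 445 to 1211. The heart muscle rows summed to 140605 to 268930 CPM in TAC+PDE5A-I (median 193041, against 101387 in TAC), and the leukocyte rows had medians of 2405 and 2454 CPM. The heart muscle sum lay mostly in miR-133a-3p, at 189579 ± 50629 CPM in TAC+PDE5A-I and 107542 ± 28271 in TAC. On the same list miR-208a-3p was lower with sildenafil, at 46.9 ± 51.8 and 475 ± 109. Among the leukocyte rows miR-223-3p was at 20.6 ± 17.1 and 109 ± 18.8 CPM, and miR-155-5p at 110 ± 19.0 and 85.0 ± 11.1. The fibroblast and stroma rows did not move together: miR-199a-5p was at 233 ± 79.0 CPM in TAC+PDE5A-I and 687 ± 171 in TAC, miR-199b-5p at 16.1 ± 8.44 and 79.5 ± 20.8, and miR-214-3p at 463 ± 196 and 249 ± 67.3 (n = 5 each). The joined row miR-199a-3p/miR-199b-3p, which is not on the marker list, was at 1417 ± 1029 and 5856 ± 979 CPM. All rows of these lists were above 0 in each group, and their part in the family's differences was not tested. Mice were also tagged in different ranges, TAC+PDE5A-I 1 and 2 in the 500s and 3 to 5 in the 600s. Within the 600s (3 against 2 mice) the differences in mean log2 CPM from TAC were -3.48 for miR-29b-3p, -3.69 for miR-29c-3p and -0.82 for miR-29a-3p. Within the 500s (2 against 1) they were -2.28, -0.99 and -0.15.

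Ratios within a library need no scaling by depth, but they were not corrected for GC content. For every 100 reads of miR-29a-3p, miR-29c-3p had 14.8, 10.4, 14.4, 15.8 and 14.2 reads in Sham 1 to 5 and 13.2, 11.0, 9.46, 10.9 and 11.5 in TAC 1 to 5. In TAC+PDE5A-I 1 to 5 it had 4.15, 6.68, 1.47, 1.30 and 1.83. The TAC+PDE5A-I libraries lay below all TAC libraries. The log2 ratio differed by -2.15 ± 0.46 between TAC+PDE5A-I and TAC (two-sided exact permutation p = 0.00794, the smallest that 252 arrangements can give, 0.0346 adjusted over 16 ratio tests) and by -0.31 ± 0.13 between TAC and Sham (exact p = 0.0556, adjusted 0.111). The first no longer passed without any 1 of TAC 1 to 5 (exact permutation test, adjusted p = 0.0508 each time). The call held without any 1 of TAC+PDE5A-I 1 to 5, which leaves as many arrangements. The TAC+PDE5A-I libraries lay below those of TAC in all these settings. With any 1 library of these groups left out, the difference ran from -2.50 to -1.92. The difference between TAC and Sham passed without Sham 2 (-0.41, adjusted p = 0.0363, exact permutation test).

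The ratio of miR-29b-3p to miR-29a-3p showed the same separation of TAC+PDE5A-I from TAC. For every 100 reads of miR-29a-3p there were 1.38 to 1.8 of miR-29b-3p in Sham, 1.45 to 2.27 in TAC and 0.222 to 0.670 in TAC+PDE5A-I. The log2 ratio differed by -2.27 ± 0.32 between TAC+PDE5A-I and TAC (two-sided exact permutation p = 0.00794, adjusted 0.0346) and by 0.14 ± 0.15 between TAC and Sham (exact p = 0.365, adjusted 0.449). Without the 4 libraries under 2000000 counts the differences from TAC were -1.88 for miR-29b-3p and -1.08 for miR-29c-3p, and neither passed with the 21 arrangements left (adjusted p = 0.111). Without any 1 of TAC 1 to 5, the adjusted p of the miR-29b-3p ratio was 0.0508 (exact permutation test). This ratio kept its call without any 1 of TAC+PDE5A-I 1 to 5. Its difference ran from -2.49 to -2.11 with any 1 library of these groups left out.

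Within the miR-29c hairpin the partner strand rose relative to the seed-carrying strand. For every 100 reads of miR-29c-3p, miR-29c-5p had 1.20 to 2.67 in Sham and 1.98 to 2.62 in TAC. In TAC+PDE5A-I 1 to 5 it had 6.93, 5.19, 17.8, 21.3 and 16.7, above all TAC libraries. TAC+PDE5A-I 3 to 5 held only 13, 10 and 9 reads of miR-29c-5p. The arms also differ in GC content (50% for miR-29c-5p and 36.4% for miR-29c-3p), and its part in this ratio was not tested. The log2 ratio differed by 2.46 ± 0.42 (two-sided exact permutation p = 0.00794, adjusted 0.0346). It again no longer passed without any 1 of TAC 1 to 5 (0.0508), and passed without any 1 of TAC+PDE5A-I 1 to 5. Its difference ran from 2.24 to 2.76 with any 1 library of these groups left out. TAC differed from Sham by 0.27 ± 0.20 (exact p = 0.246, adjusted 0.394), and without Sham 2 by 0.40, which passed (0.0363). In the miR-29a hairpin the ratio of 5p to 3p reads differed by -2.79 ± 1.25 between TAC+PDE5A-I and TAC and did not pass (exact p = 0.0556, adjusted 0.111), with 2 of the 5 libraries at 0 reads of the 5p arm. Without TAC+PDE5A-I 2 it passed (-3.48, adjusted p = 0.0423, exact permutation test).

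**Figure D4:**
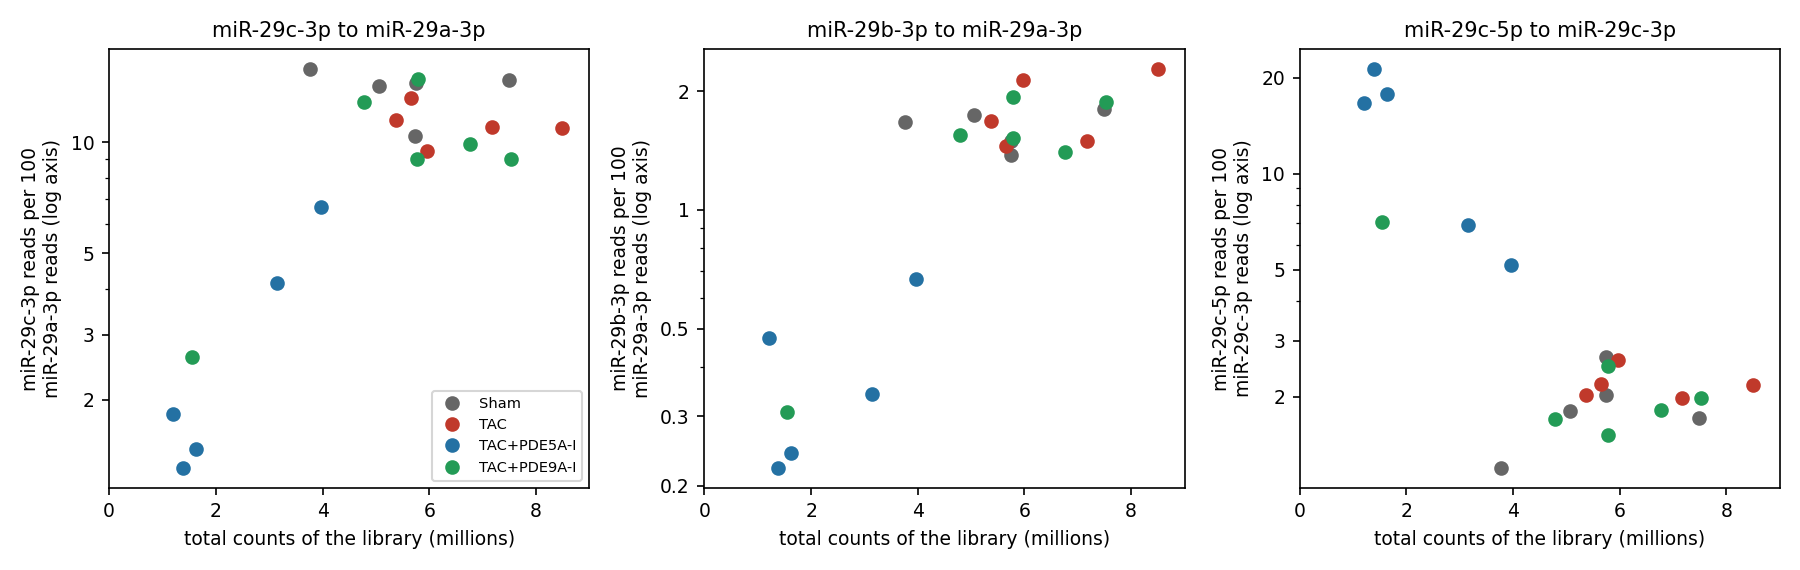
Ratios of member reads within a library, per 100 reads of the second member on a log axis, against the library's total counts, with 1 point per mouse coloured by group. TAC+PDE9A-I 5, the only shallow library outside TAC+PDE5A-I, lies with the TAC+PDE5A-I libraries in all 3 panels, at 2.61, 0.308 and 7.09 reads per 100.

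With PF-04449613, no row of the family passed against TAC. Of all 561 rows, 0% were called (edgeR, 16 rows at an unadjusted p under 0.05), and of the 7 members 0 were called, 0 had an unadjusted p under 0.05 and DESeq2 called 0. The median log2 fold change was -0.02 over the 7 rows and -0.04 over all rows. The 95% intervals reached from -0.33 to 0.50 for miR-29a-3p, from -1.05 to 0.67 for miR-29b-3p and from -1.03 to 1.00 for miR-29c-3p, so a 2-fold fall of miR-29b-3p or miR-29c-3p lay within its interval.

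miR-29a-3p was at 4979, 4869, 3987, 4782, 3045 and 5372 CPM in TAC+PDE9A-I 1 to 6. miR-29b-3p was at 69.8, 94.4, 60.7, 89.8, 9.37 and 83.1 CPM. miR-29c-3p was at 493, 722, 360, 432, 79.3 and 691 CPM. For all 3, library 5 was the lowest, and the other 5 libraries overlapped TAC. The sums of smooth muscle and endothelial rows were also lowest there among this group's libraries, at 11650 and 3136 CPM. Without that library and the 3 shallow TAC+PDE5A-I libraries, the estimates of miR-29b-3p and miR-29c-3p turned from -0.19 ± 0.41 and -0.02 ± 0.49 to 0.06 ± 0.24 and 0.22 ± 0.21, and neither passed. By ear tag, mean log2 CPM of miR-29a-3p, miR-29b-3p and miR-29c-3p differed from TAC by 0.48, 0.41 and 0.20 (100s, 1 against 2 mice). The differences were -0.06, -0.95 and -0.40 in the 500s (4 against 1) and 0.19, -0.15 and 0.39 in the 600s (1 against 2).

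The 5p arms did not pass either. miR-29a-5p was at 23.7 to 31.5 CPM in 5 libraries and had no read in TAC+PDE9A-I 5, where a count of 0 allows up to 1.87 CPM (log2 fold change -0.42 ± 0.78). miR-29c-5p was at 9.15 ± 2.16 CPM (n = 6; -0.15 ± 0.23), miR-29b-2-5p at 4.23 ± 1.39 CPM (0.39 ± 0.32) and miR-29b-1-5p at 1.24 to 3.95 CPM (0.25 ± 0.65). None of the 4 ratios differed from TAC by the exact permutation test (adjusted p = 0.273 to 0.950).

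The drug groups were compared directly, at matched times and at doses that the sources used here do not give. Against TAC+PDE9A-I, miR-29b-3p was 5.20-fold lower in TAC+PDE5A-I (log2 -2.38 ± 0.45, edgeR adjusted p = 0.00274) and miR-29c-3p 4.23-fold lower (-2.08 ± 0.52, 0.00867). These were 2 of 7 rows called (28.6%), where 34.8% of all rows were called in TAC+PDE5A-I against TAC+PDE9A-I, 19.6% lower and 15.2% higher. The groups overlapped for both rows through TAC+PDE9A-I 5. Fitted on these 2 groups alone neither passed (-2.52, adjusted p = 0.0757 and -2.18, 0.0912), nor with the GC correction (-0.21, 0.614 and -0.39, 0.134).

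miR-29a-3p was at -0.50 ± 0.20 between the drug groups (edgeR adjusted p = 0.0589, 95% interval -0.92 to -0.08) and was called lower with DESeq2 (-0.68, 0.00226), RLE size factors (-0.69, 0.0182), no filter on low counts (-0.65, 0.0462) and thinned libraries (-0.71, 0.0165). It was also called lower without TAC+PDE5A-I 1 (-0.78), TAC+PDE5A-I 2 (-0.75), TAC+PDE9A-I 3 (-0.68) or TAC+PDE9A-I 5 (-0.73). For the 5p arms the estimates were -0.92 ± 0.81 for miR-29a-5p, -0.57 ± 0.68 for miR-29b-1-5p, 0.46 ± 0.32 for miR-29b-2-5p and 0.06 ± 0.23 for miR-29c-5p, and none passed. The 95% interval of the difference was -0.43 to 0.55 for miR-29c-5p and -2.60 to 0.76 for miR-29a-5p. The ratio of miR-29c-5p to miR-29c-3p was higher in TAC+PDE5A-I (log2 difference 2.35 ± 0.54, two-sided exact permutation p = 0.00866, adjusted 0.0346). The ratio of miR-29b-3p to miR-29a-3p was lower (-1.76 ± 0.49, exact p = 0.0130, adjusted 0.0416), and that of miR-29c-3p to miR-29a-3p did not pass after adjustment (-1.77 ± 0.58, exact p = 0.0216, adjusted 0.0577). The first lost its call without any 1 of TAC+PDE5A-I 3, 4 and 5 and TAC+PDE9A-I 1, 2, 3, 4 and 6 (exact permutation, adjusted p 0.0571 to 0.0952). The second lost it whichever library of the 2 groups was left out except TAC+PDE9A-I 5 (0.0653 to 0.111). The last passed without TAC+PDE5A-I 2 (-2.13, 0.0305) or TAC+PDE9A-I 5 (-2.12, 0.0212).

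**Figure D5:**
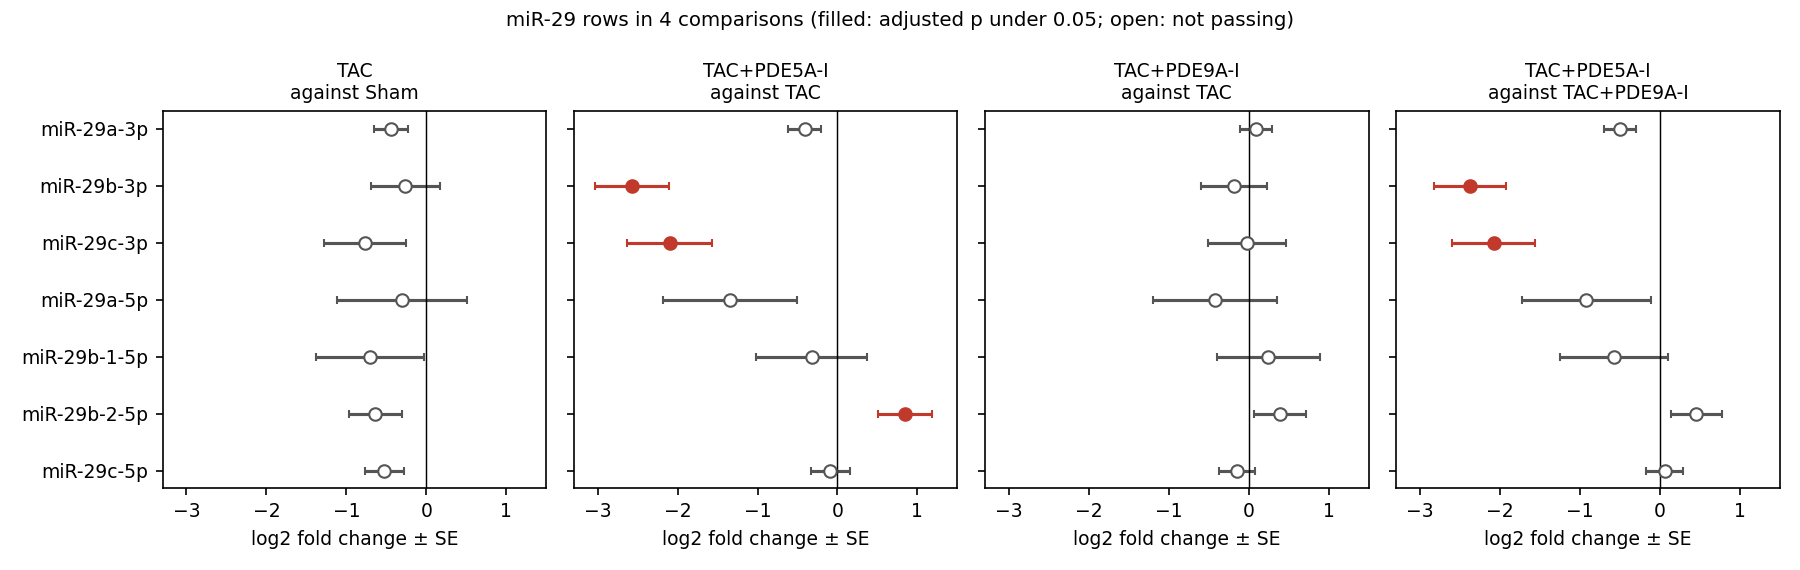
Log2 fold changes ± SE of the 7 rows in the 4 comparisons, with filled points for an edgeR adjusted p under 0.05. Only miR-29b-3p and miR-29c-3p (lower in the 2 comparisons of TAC+PDE5A-I) and miR-29b-2-5p (higher in TAC+PDE5A-I against TAC) are filled.

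Other microRNAs tied to cardiac fibrosis or matrix genes were counted from a list of 30 outside the family, all of which were tested. In TAC against Sham 2 were higher and 0 lower, and 28 did not pass, where 2.32% of all rows were called. Their median log2 fold change was 0.07, and that of all rows -0.08. The 2 were miR-199a-5p (1.94 ± 0.44) and miR-214-3p (1.8 ± 0.41, edgeR adjusted p = 0.0227 for each), which can be made from the same noncoding transcript. miR-21a-5p, known to rise in fibroblasts of the failing heart, was at 1.74 ± 0.72 and did not pass (0.210). In the lower direction miR-155-5p (-0.46 ± 0.15) and miR-30d-5p (-0.37 ± 0.17) had the smallest p and did not pass (0.111 and 0.282).

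In TAC+PDE5A-I against TAC, 15 of the 30 were lower and 5 higher, and 10 did not pass, where 24.8% of all rows were lower and 21.6% higher. Their median was -0.90, and that of all rows -0.31. miR-21a-5p (-4.12 ± 0.80) and miR-101b-3p (-3.39 ± 0.70) fell, and miR-15b-5p (1.18 ± 0.25) and miR-125b-5p (0.78 ± 0.20) rose (edgeR adjusted p = 0.00130, 0.00183, 0.00195 and 0.00506). In TAC+PDE9A-I against TAC 0 of 30 passed, with a median of -0.10 (all rows -0.04), and miR-21a-5p was at -0.51 ± 0.67 (0.991). Between the drug groups 14 were lower in TAC+PDE5A-I and 4 higher, and 12 did not pass, where 19.6% of all rows were lower and 15.2% higher. Their median was -0.71, and that of all rows -0.25. The comparisons with TAC share its libraries. In TAC+PDE5A-I (n = 5), miR-21a-5p was at 530 ± 475 CPM, miR-101b-3p at 36.4 ± 38.6, miR-15b-5p at 165 ± 63.9 and miR-125b-5p at 8262 ± 1879. TAC+PDE5A-I 3, 4 and 5, which are under 2000000 counts and GC-rich, were included. The part of depth and GC content in the differences of these listed rows was not tested.

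Across the 21 libraries, the members themselves varied together to different degrees. Spearman's rho of log2 CPM was 0.932 between miR-29a-3p and miR-29c-3p, 0.813 between miR-29b-3p and miR-29c-3p and 0.706 between miR-29a-3p and miR-29b-3p. miR-29b-2-5p stood apart, with rho from -0.418 (with miR-29b-3p) to 0.272 (with miR-29b-1-5p). Among 298 rows with a mean of at least 10 CPM outside the family, those most like miR-29a-3p were miR-30b-5p (rho 0.942), miR-30c-5p (0.940) and miR-133a-5p (0.935). Those most like miR-29c-3p were miR-30c-5p (0.970), miR-30d-3p (0.968) and miR-499-5p (0.964). These are descriptions over 21 libraries that differ in depth and base composition, between groups and within the 2 drug groups.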

How the data were processed

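The authors deposited raw counts per mature microRNA for 21 libraries, 1 per mouse. The submitters' processing notes name Bowtie 1.1.1, cutadapt 1.8, CASAVA 1.8.4 and DESeq 1.26.0, with no roles, and the sources used here give neither build nor annotation. Libraries were made from total RNA with a TruSeq small RNA kit, per the labels' protocols. Blank lines (24055 of 25958) name no microRNA and hold no row used. No value equals 1.

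The test used edgeR 4.0.16 in R 4.3.3 (filterByExpr by group, TMM, robust quasi-likelihood fit of all 4 groups, 17 residual degrees of freedom), with Benjamini-Hochberg adjustment over 561 rows. Intervals are 95%. Ratios used log2 of counts plus 0.5 and two-sided exact permutation tests over all arrangements, with the code checked on random numbers against SciPy 1.17.1. Scripts were tested on simulated data. Totals were 1205417 to 8497792, so a count of 0 allows 3 counts, up to 2.49 CPM by total in the shallowest library.

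Alternatives were RLE, upper-quartile and total-count scaling, no filter, DESeq2 1.42.0, the 2 groups alone, replicate numbers as a block, ear tag range as a term, a GC correction (loess, span 0.75), thinning and leaving out each library. Leaving out the 4 libraries under 2000000 counts was added after seeing the data. Named rows were all 7 members, the 3 rows most alike for members with a mean of at least 100 CPM, and, from the fibrosis list, the 2 smallest p in each direction and miR-21a-5p. Members and lists were chosen with earlier results of these data known.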

Additional observations from a re-analysis of the deposited data

Results flagged for a closer look

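In 10 of 44 sets of 1 group's values (7 rows and 4 log2 ratios in 4 groups), the highest or lowest library lay farther from its nearest neighbour than Dixon's 95% limit allows. Chance alone passes that limit in about 1 of 20 independent sets. The sets here share libraries and rows, so that rate is no measure for the 10 flagged. TAC+PDE9A-I 5 was the library in 5 of them: miR-29a-5p was at 0 CPM (nearest 23.7), the log2 ratio of miR-29b-3p to miR-29a-3p at -8.30 (nearest -6.16), that of miR-29c-3p to miR-29a-3p at -5.26 (-3.47), that of miR-29a-5p to miR-29a-3p at -13.25 (-7.70, with 0.5 added to the count of 0) and that of miR-29c-5p to miR-29c-3p at -3.75 (-5.31). TAC 1 was low for miR-29a-3p, at 2646 CPM (nearest 4278), and for miR-29c-5p, at 7.66 CPM (nearest 10.5). Sham 1 was high for miR-29b-3p, at 118.4 CPM (nearest 90.7). Sham 2 was low for the log2 ratio of miR-29c-3p to miR-29a-3p, at -3.27 (nearest -2.81), and Sham 5 was high for that of miR-29a-5p to miR-29a-3p, at -7.02 (nearest -7.22). The cause of these values was not tested.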

How the results depend on the processing

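The counts of called members hide changes of direction and of member. In TAC+PDE5A-I against TAC, 1 higher and 2 lower became 0 higher and 3 lower with RLE, DESeq2, no filter and thinning, and 2 higher and 0 lower with the GC correction. The counts moved by over 1.5 times as follows. In TAC against Sham the count was 1 with DESeq2, the 2 groups alone, the GC correction and without the 4 shallow libraries, and between the drug groups it was 0 with the 2 groups alone and with the GC correction. Leaving out 1 library at a time gave 0 in TAC against Sham, 2 to 3 in both comparisons of TAC+PDE5A-I and 0 in TAC+PDE9A-I against TAC.

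Estimates that turned sign were as follows, on the log2 scale. In TAC+PDE9A-I against TAC, miR-29c-3p turned to 0.0046 (RLE), 0.0026 (total counts), 0.0044 (DESeq2), 0.0256 (thinned), 0.26 (GC correction) and 0.22 (without the 4 libraries), and miR-29b-3p to 0.11 (GC correction) and 0.0589 (without the 4). Between the drug groups, miR-29c-5p turned to -0.11 (RLE), -0.0784 (no filter), -0.0523 (DESeq2), -0.0743 (the 2 groups alone) and -0.0197 (thinned), and the GC correction turned miR-29a-3p to 0.83, miR-29a-5p to 0.61 and miR-29b-1-5p to 0.47. In TAC+PDE5A-I against TAC, upper-quartile scaling turned miR-29a-3p to 0.0514, miR-29b-1-5p to 0.0512 and miR-29c-5p to 0.36, the GC correction turned miR-29a-3p to 1.47, miR-29a-5p to 0.30, miR-29b-1-5p to 1.19 and miR-29c-5p to 0.34, and leaving out the 4 libraries turned miR-29b-1-5p to 0.18 and miR-29c-5p to 0.28. Leaving out 1 library at a time gave ranges across 0 in TAC+PDE9A-I against TAC for miR-29a-3p (-0.0412 to 0.18), miR-29b-3p (-0.36 to 0.0448) and miR-29c-3p (-0.23 to 0.20), and between the drug groups for miR-29c-5p (-0.27 to 0.0768). The cause was not tested.

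For the log2 ratios, leaving out the 4 libraries gave differences that no longer passed for miR-29b-3p to miR-29a-3p (-1.88 against TAC and -1.77 against TAC+PDE9A-I), miR-29c-3p to miR-29a-3p (-1.08 against TAC) and miR-29c-5p to miR-29c-3p (1.46 and 1.68), where fewer libraries leave too few arrangements. The ratio of miR-29a-5p to miR-29a-3p between the drug groups turned to 0.28, and that of miR-29c-5p to miR-29c-3p in TAC+PDE9A-I against TAC to -0.22, and to -0.34 when thinned. Leaving out 1 library at a time, the differences of TAC+PDE5A-I from TAC ran from -2.49 to -2.11 (miR-29b-3p to miR-29a-3p), -2.50 to -1.92 (miR-29c-3p to miR-29a-3p), -3.48 to -2.04 (miR-29a-5p to miR-29a-3p) and 2.24 to 2.76 (miR-29c-5p to miR-29c-3p). Those from TAC+PDE9A-I ran from -2.16 to -1.60 (miR-29b-3p to miR-29a-3p), -2.13 to -1.54 (miR-29c-3p to miR-29a-3p) and 2.13 to 2.68 (miR-29c-5p to miR-29c-3p). In TAC against Sham they ran from -0.41 to -0.25 (miR-29c-3p to miR-29a-3p) and 0.12 to 0.40 (miR-29c-5p to miR-29c-3p), and in TAC+PDE9A-I against TAC from -0.22 to 0.24 (miR-29c-5p to miR-29c-3p).

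Replicate numbers did not pair the libraries (correlations of same-numbered deviations -0.208 to 0.351, with 1 to 3 of 5 pairs over 0.1). With the replicate block, 0, 2, 0 and 2 members were called in the 4 comparisons, and the only call it changed was that of miR-29b-2-5p. Over all rows, TAC against Sham had 13 called, against 54 with DESeq2, 98 with the 2 groups alone, 75 without the 4 libraries, 23 with the GC correction, 20 with no filter, 4 with the ear tag term and 3 to 32 when 1 library was left out (4, 7, 4 and 3 without Sham 1 to 4, 5 without TAC 4 and 32 without TAC+PDE9A-I 5). TAC+PDE5A-I against TAC had 260, against 153 with the GC correction and 122 without the 4, and 165 to 280 when 1 library was left out (165 without TAC+PDE5A-I 3). The drug groups differed in 195, against 0 with the 2 groups alone, 69 with the GC correction and 115 with the ear tag term, 104 without the 4 and 72 to 252 when 1 library was left out (72, 84 and 97 without TAC+PDE5A-I 3, 4 and 5, and 91, 124 and 125 without TAC+PDE9A-I 2, 4 and 6). Depth limits miR-29b-1-5p and miR-29b-2-5p, whose counts lie near the floor in the shallow libraries, and thinning left 5 of 7 members to test.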
